A study of Mus musculus with 4 samples.

Results

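Autophagy genes were examined in the cortex of APPswe/PS1ΔE9 mice (APP), and the set comprised 10 genes that carry cargo to the autophagosome, build its membrane or start its formation. The members were the receptors Sqstm1 and Optn, the ATG8 genes Map1lc3a, Map1lc3b, Gabarap and Gabarapl1, the initiation genes Ulk1 and Becn1, and the conjugation genes Atg5 and Atg7. They were found by gene symbol, without regard to upper or lower case, among 22919 features counted in the libraries. The deposited table held 24 transcripts under these 10 symbols, and 1 of the symbols was spelled there in the usual mouse form. RNA from the cortex of 2 APP and 2 wild-type (WT) male mice, all 12 months of age, was sequenced after removal of ribosomal RNA, with the strand of each fragment kept. APP mice (labelled APP/PS1 transgenic) carry transgenes under the prion protein promoter of the mouse, among them APP with the Swedish mutations, on a C57BL/6 background. WT mice were of the C57BL/6J strain, without transgenes. Counts totalled 28525117 (APP.3) and 31392983 (APP.4) for the APP mice and 43881196 (WT.1) and 35623228 (WT.2) for the WT mice.

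In autophagy, a double membrane encloses proteins or organelles and delivers them to the lysosome. The kinase ULK1 starts the process, Beclin 1 (Becn1) activates a lipid kinase on the forming membrane, and ATG7 and ATG5 belong to the machinery that attaches ATG8 proteins to lipid. Receptors such as p62 (Sqstm1) and optineurin (Optn) bind ubiquitin on the cargo and an ATG8 protein on the membrane. In neurons many autophagosomes form in the axon and mature while they travel to the cell body, and immature forms gather in swollen neurites around amyloid plaques.

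The coding ends of the ATG8 genes are shown because the protease ATG4 cleaves each protein behind its last glycine before the protein is attached to lipid. The last 10 codons of the most counted transcript, stop codon included, are given 5′ to 3′ from GENCODE M21 (GRCm38), with the codon of the last glycine in capitals. Gabarapl2, a member of the same family outside the set, is added for comparison.
Map1lc3a: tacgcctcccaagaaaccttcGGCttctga
Map1lc3b: gagacattcGGGacagcaatggctgtgtaa
Gabarap: tacagtgatgaaagcgtctatGGTctgtga
Gabarapl1: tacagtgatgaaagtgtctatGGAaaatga
Gabarapl2: tacagcggagagaacacttttGGCttctga
The glycine codon was number 120 of 121 in Map1lc3a and number 120 of 125 in Map1lc3b, so that 5 codons followed it in Map1lc3b and 1 in Map1lc3a. In Gabarap, Gabarapl1 and Gabarapl2 it was number 116 of 117. The stretches lie on the plus strand at chr2:155277608-155277637, chr8:121596741-121596770, chr11:69994495-69994524, chr6:129541138-129541167 and chr8:111952376-111952405 in the order printed, all within coding sequence. Over the whole coding sequence, Map1lc3a and Map1lc3b were identical at 77.5% of aligned bases and Gabarap and Gabarapl1 at 74.9%. Between Map1lc3a or Map1lc3b and Gabarap or Gabarapl1 the share was from 54.4% to 56.8%, and Gabarapl2 had 59.4% with Map1lc3a and 61.0% with Map1lc3b. With Gabarap and Gabarapl1, Gabarapl2 shared 64.6% and 64.9%. No ATG8 member had a blastn match to another of 90 or more bases with at least 93% identity over the whole match. Shorter stretches within a longer match were not searched, and the authors also kept reads shorter than 90 bases. Whether reads were shared between the ATG8 genes was therefore not tested.

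Before the members were compared, the genotypes were checked. App, on which reads of the transgene can be counted, reached 2686 (APP.3) and 2388 (APP.4) on the CPM scale, which puts counts on a common library size, where WT.1 and WT.2 had 856 and 905. The log2 fold change of APP over WT was 1.53 (Benjamini-Hochberg adjusted p = 2.82e-06 in edgeR's quasi-likelihood test). For Prnp, whose promoter drives the transgenes, it was 1.72 (adjusted p = 1.83e-06 in the same edgeR fit). The reference genes Gapdh and Actb, at -0.09 and 0.01 on the log2 scale, did not pass with all libraries, though Gapdh passed as lower in APP without APP.4, at -0.17. The App and Prnp counts therefore separated the libraries as labelled.

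None of the 10 autophagy genes passed an adjusted p of 0.05 between APP and WT by edgeR's quasi-likelihood test. Over all features 303 passed at this threshold (1.32%), of which 259 were higher in APP (1.13%) and 44 lower (0.192%), and 225 (0.982%) also had a fold change of at least 1.5. Among the 9564 features with a mean of at least 10 CPM, a range that includes all the members, 1.64% passed. The number of members with an adjusted p under 0.05 was also 0 with edgeR's exact test, its likelihood ratio test and DESeq2, which called 2.57%, 2.79% and 1.47% of all features. At an unadjusted p under 0.05 the quasi-likelihood test counted 1 member, Map1lc3a, which was lower in APP, against 6.86% of all features higher and 4.19% lower, and each of the other 3 tests counted 0. Among all features, calls made up 8.67% without APP.3 and 6.19% without APP.4, and there were 198 without WT.1. For 2 against 2 mice the smallest two-sided p of an exact permutation test is 0.333, so the tests used rest on spread shared between genes.

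The log2 fold change of APP over WT ranged from -0.19 to 0.07, with a median of -0.02 beside 0.00 over all features, and 4 members had positive and 6 negative values (3 and 7 with DESeq2's size factors). Leaving out a library turned the sign for Sqstm1, Gabarapl1, Ulk1, Becn1 and Atg5. Standard errors lay between 0.07 and 0.11 with all libraries, between 0.05 and 0.13 without APP.3 or APP.4, and between 0.12 and 0.19 without WT.1 or WT.2. Across the members the 95% intervals with all libraries reached from -0.38 to 0.28 on the log2 scale, or from 0.768-fold to 1.21-fold, so each interval lay inside a 1.5-fold difference in either direction. The values of the 2 APP libraries lay above both WT values in 2 members and below both in 2, where over all features this was the case for 21.1% and 20.0%. A library's CPM for a member was between 0.871 and 1.08 times the mean of the 4 libraries for that gene.

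**Figure D1:**
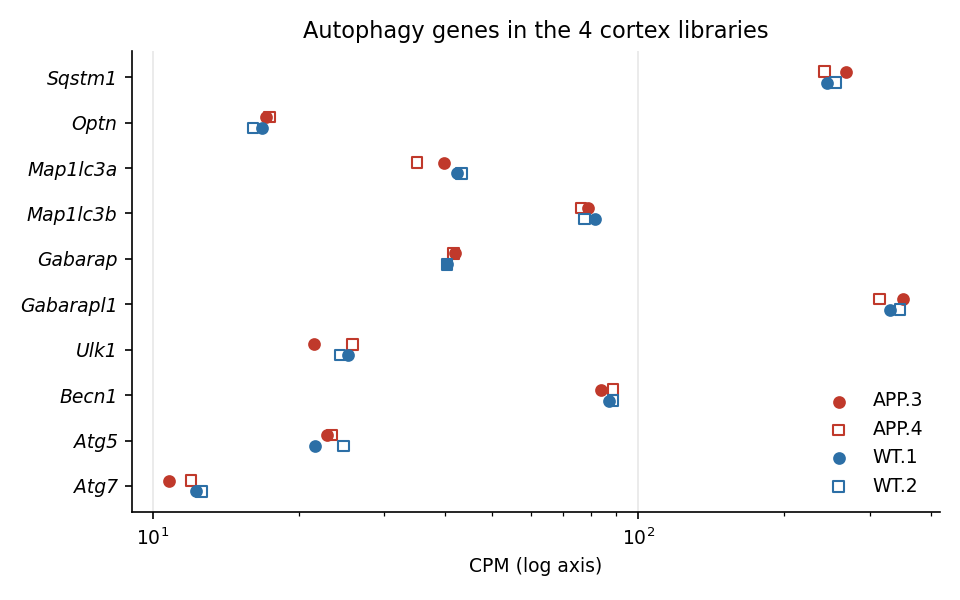
CPM of the 10 autophagy genes (log axis) in the APP libraries (red) and WT libraries (blue), with 1 point per library. Points of a gene lie close together, from Atg7 at 10.8 to 12.6 CPM to Gabarapl1 at 314 to 351 CPM, and APP and WT overlap in 6 of the 10 genes.

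**Figure D2:**
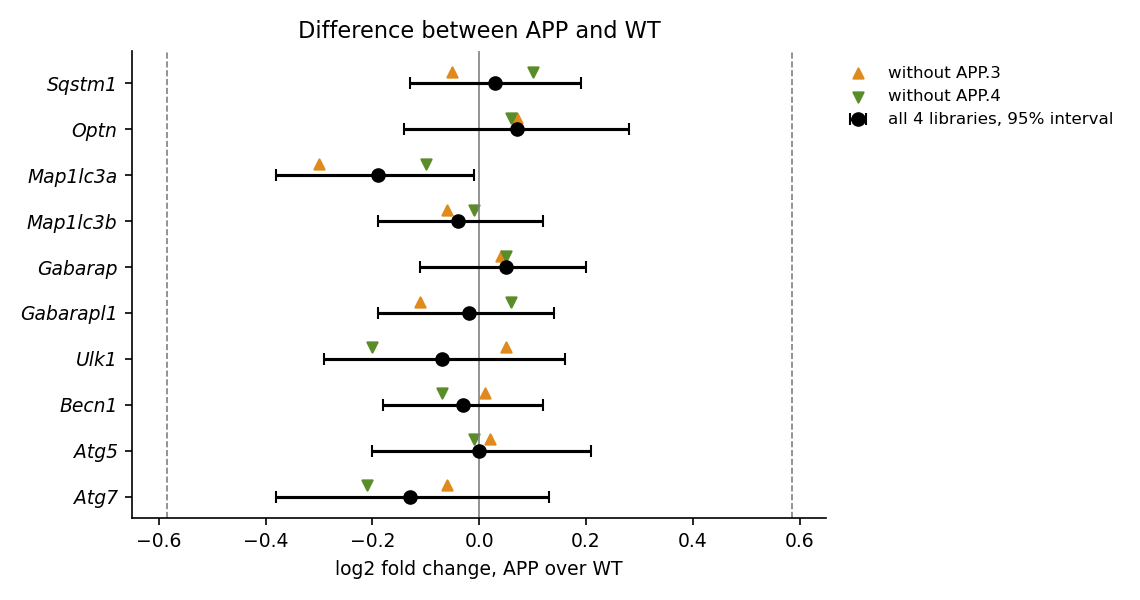
Log2 fold change of APP over WT for each member with its 95% interval (black, edgeR's quasi-likelihood fit), and the value without APP.3 (orange) or without APP.4 (green). Dashed lines mark a fold change of 1.5, and the intervals of all 10 genes lie between them.

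Sqstm1 encodes p62, which gathers ubiquitinated proteins and is itself degraded with them. Its CPM was 268 (APP.3) and 242 (APP.4) beside 245 (WT.1) and 255 (WT.2). The APP values lay on both sides of the WT values, so the groups overlapped. The log2 fold change was 0.03 with a standard error of 0.07 (95% interval -0.13 to 0.19, adjusted p = 0.939 by edgeR's quasi-likelihood test). The gene lies on the minus strand at chr11:50199366-50210827 of GRCm38. Of its counts, 86.4% were on Sqstm1-201 and 13.1% on Sqstm1-202, which are both protein coding and have 1887 bases in common. The share of Sqstm1-201 stayed between 86.3% and 86.8% in the 4 libraries. Mrnip overlaps the gene on the opposite strand by 750 bases, and it had at most 198 counts in a library where Sqstm1 had at least 7485.

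Optn encodes optineurin, a receptor for ubiquitinated mitochondria, bacteria and protein aggregates. It had 17.1 CPM (APP.3) and 17.4 (APP.4) beside 16.8 (WT.1) and 16.1 (WT.2). Both APP values were above both WT values, by a margin that did not pass the test. The log2 fold change was 0.07 with a standard error of 0.09 (95% interval -0.14 to 0.28, adjusted p = 0.876 by edgeR's quasi-likelihood test). The gene lies on the minus strand at chr2:5020642-5064051. Optn-201 carried 89.6% of its counts, and all of its 2411 bases are also part of Optn-202, so reads could be counted on either. Sqstm1 made up between 93.3% and 94.1% of the summed counts of the 2 receptors, with no separation of APP from WT.

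The receptors meet ATG8 proteins through an LC3-interacting region, a short stretch whose core of 4 codons is given in capitals. These codons begin at number 340 of 404 in Sqstm1-201 and number 188 of 584 in Optn-201.
Sqstm1: gacgatgacTGGACACATTTGtcttcaaaa
Optn: gaagactccTTCGTTGAGATCaggatgacc
They lie on the minus strand of coding exons, at chr11:50202532-50202561 and chr2:5045987-5046016.

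Among the ATG8 genes, Map1lc3a had the largest difference of the set and the smallest p. LC3A and LC3B, encoded by Map1lc3a and Map1lc3b, coat the growing autophagosome. Map1lc3a had 39.9 CPM (APP.3) and 35.0 (APP.4) beside 42.4 (WT.1) and 43.2 (WT.2). The APP values were both below the WT values, and APP.4 was the lowest. The log2 fold change was -0.19 with a standard error of 0.08 (95% interval -0.38 to -0.01, adjusted p = 0.413 by edgeR's quasi-likelihood test). Without APP.3 it was -0.30 and passed the test (adjusted p = 0.0111 by edgeR's quasi-likelihood test), and without APP.4 it was -0.10. Over all alternatives the adjusted p of Map1lc3a ranged from 0.0111 to 0.993. In the fit without APP.3 it was the 1 member of 10 to pass, beside 8.67% of all features, so the pass says little about Map1lc3a itself. Such a fit takes its spread from the WT pair and assumes that the lone APP library varies alike.

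Map1lc3b, by contrast, had 78.8 CPM in APP.3 and 76.2 in APP.4 beside 81.3 in WT.1 and 77.5 in WT.2, and the groups overlapped. Its log2 fold change was -0.04 with a standard error of 0.07 (adjusted p = 0.920 by edgeR's quasi-likelihood test). The symbol covered 1 of the 3 counted transcripts of Map1lc3b and 89.4% of the counts, and the others, Map1lc3b-202 and Map1lc3b-204, were deposited without a symbol as retained introns. A further 5 annotated genes matched Map1lc3b over at least 300 bases on the same strand, and none of them had counts. The transcript also holds a stretch from base 2313 to 2435 that matches 226 other genes over 107 to 119 bases, so reads from there could be placed on other genes. Zcchc14 overlaps Map1lc3b on the opposite strand by 58 bases and had between 1586 and 2356 counts, and whether strand was used in counting is not stated.

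Gabarap and Gabarapl1 belong to the subfamily of ATG8 proteins that acts late, in closure of the autophagosome and its fusion with the lysosome. Gabarap counts came to 41.9 CPM (APP.3) and 41.6 CPM (APP.4), and to 40.4 CPM for both WT mice. Both APP values were above the WT values, and the log2 fold change of 0.05 had a standard error of 0.07 (adjusted p = 0.889 by edgeR's quasi-likelihood test). Gabarapl1 had 351 CPM (APP.3) and 314 (APP.4) beside 330 (WT.1) and 346 (WT.2). Its highest and lowest values were thus both from APP mice, and its log2 fold change was -0.02 with a standard error of 0.07 (adjusted p = 0.958 by edgeR's quasi-likelihood test). A noncoding gene, 1700101I11Rik, overlaps Gabarapl1 on the opposite strand and had at most 31 counts in a library. Gabarapl2 had between 91.9 and 95.9 CPM in the 4 libraries and a log2 fold change of -0.01.

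Gabarapl1 predominated within the family. Per kilobase of transcript its share of the 4 ATG8 members was 66.1% (APP.3) and 65.0% (APP.4) beside 64.1% (WT.1) and 65.5% (WT.2). The share of Map1lc3a was 12.4% and 11.9% in APP against 13.6% and 13.5% in WT. With Gabarapl2 included, Gabarapl1 still took between 53.6% and 55.6% and Gabarapl2 between 15.9% and 17.5%. The composition of the family thus differed between libraries by a few percentage points at most.

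Ulk1 encodes the kinase that integrates signals from nutrients and energy at the start of autophagy. It had 21.5 CPM (APP.3) and 25.8 (APP.4) beside 25.2 (WT.1) and 24.3 (WT.2). Its APP libraries held the lowest and the highest value, and leaving out APP.3 or APP.4 gave log2 fold changes of 0.05 and -0.20. With all libraries it was -0.07 with a standard error of 0.10 (adjusted p = 0.889 by edgeR's quasi-likelihood test). The gene, on the minus strand at chr5:110784488-110810097, was counted on a single transcript of 28 exons.

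Becn1 had 83.7 CPM (APP.3) and 88.8 (APP.4) beside 87.1 (WT.1) and 88.7 (WT.2). The APP values enclosed the WT values, and the log2 fold change was -0.03 with a standard error of 0.07 (95% interval -0.18 to 0.12, adjusted p = 0.942 by edgeR's quasi-likelihood test). The gene lies on the minus strand at chr11:101285952-101302286. Cntd1, which overlaps it on the opposite strand by 10366 bases, had at most 30 counts in a library, against at least 2423 for Becn1.

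Becn1 was also the member with the most transcripts, 8 of the 24 under the members' symbols. Most of its counts were on a transcript that the deposited table and GENCODE M21 both class as subject to nonsense-mediated decay, the pathway that removes RNAs with an early stop codon. This transcript, Becn1-201, took 83.5% of the counts (APP.3) and 83.2% (APP.4) beside 83.0% (WT.1) and 82.7% (WT.2). The protein-coding Becn1-205 took between 3.38% and 3.71%, and Becn1-202, with a retained intron, between 7.10% and 8.13%. Of 12 exons, 9 are identical in Becn1-201 and Becn1-205. Exon 4 is 64 bases longer in Becn1-201 and holds its stop codon, whereas that of Becn1-205 is in exon 12. Exon 7 is 4 bases longer in Becn1-201, and exon 12 has 720 bases in Becn1-201 and 3030 in Becn1-205. Since 2055 of the 2123 bases of Becn1-201 (96.8%) are shared with Becn1-205, the transcript counts do not tell which of the 2 gave a read from the shared part, and reads over the differing bases were not analysed here.

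Atg5 and Atg7 serve the conjugation of ATG8 proteins to lipid, ATG7 as the activating enzyme and ATG5 in the complex that directs the last transfer. Atg5 had 22.9 CPM (APP.3) and 23.4 (APP.4) beside 21.6 (WT.1) and 24.7 (WT.2). The WT values enclosed the APP values, and the log2 fold change was 0.00 with a standard error of 0.09 (95% interval -0.20 to 0.21, adjusted p = 0.993 by edgeR's quasi-likelihood test). Atg7 had 10.8 CPM (APP.3) and 12.0 (APP.4) beside 12.3 (WT.1) and 12.6 (WT.2), the fewest of the set. Both APP values were below the WT values, with a log2 fold change of -0.13 and a standard error of 0.11 (95% interval -0.38 to 0.13, adjusted p = 0.771 by edgeR's quasi-likelihood test). Atg5 lies on the plus strand at chr10:44268358-44364291 and Atg7 at chr6:114643097-114860614.

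Across the members, 27 transcripts had counts, 24 with a symbol and 3 without, and 13 of them were deposited as protein coding. Tested transcript by transcript with edgeR's quasi-likelihood test, 0 of the 27 passed an adjusted p of 0.05, where 1.06% of all transcripts did. At an unadjusted p under 0.05 there was 1, the main transcript of Map1lc3a, at -0.20 on the log2 scale (adjusted p = 0.486 by the same edgeR test), where 9.18% of all transcripts had such a p. By edgeR's exact test the count without adjustment was 0, beside 8.20% of all transcripts, and it was also 0 with adjustment.

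**Figure D3:**
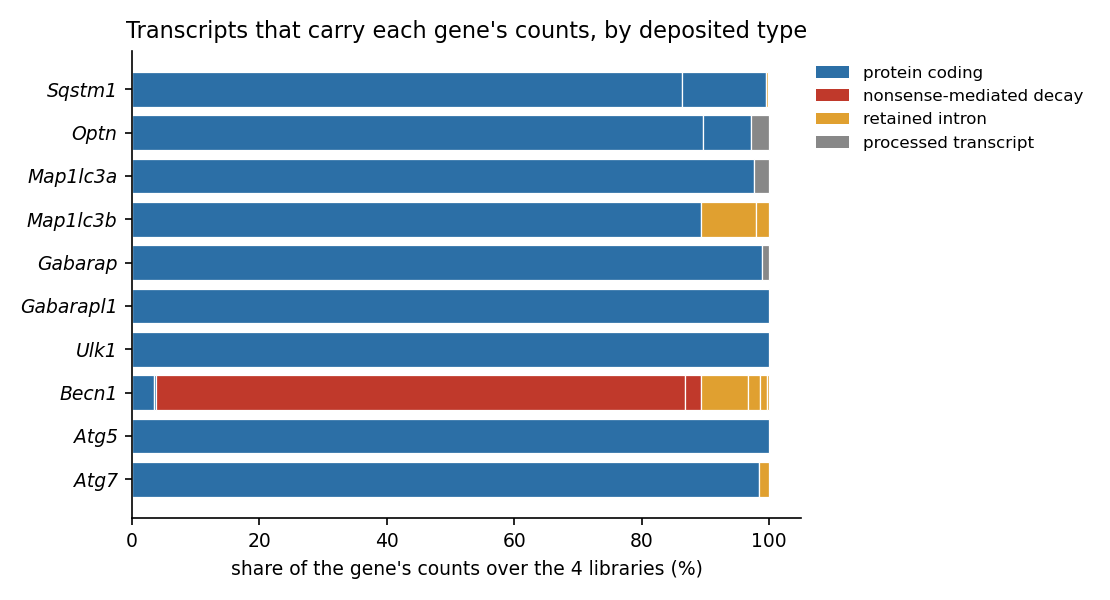
Share of each member's counts over the 4 libraries (%) that fell on its transcripts, coloured by the type given in the deposited table. Most bars are almost wholly protein coding, while Becn1 has 83.1% of its counts on a transcript classed as nonsense-mediated decay and Map1lc3b has 89.4% on its coding transcript.

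The levels of the members were compared per transcript length, as CPM per kilobase. Gabarapl1 had the highest level, 184 ± 9.17 (SD over the 4 libraries), followed by Sqstm1 with 99.8 ± 4.59. A middle group consisted of Becn1 with 42.2 ± 1.37, Map1lc3a with 36.4 ± 3.35, Gabarap with 31.0 ± 0.569 and Map1lc3b with 31.0 ± 0.850. Atg5 followed with 9.85 ± 0.533, then Optn with 6.96 ± 0.230, Ulk1 with 4.64 ± 0.365 and Atg7 with 3.17 ± 0.212. Gabarapl1 thus stood 58.1-fold above Atg7 on this scale. The ranges of Gabarap and Map1lc3b overlapped and their order was not the same in every library. For each other pair of neighbours the gene with the higher mean was higher in all 4 libraries, with ranges that did not overlap. The place of Becn1 depended on which transcript length was used, and with that of its longest coding transcript its level was 19.9, below Map1lc3b. The ATG8 genes and Sqstm1 were thus counted at higher levels per length than Atg5, Ulk1 and Atg7.

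**Figure D4:**
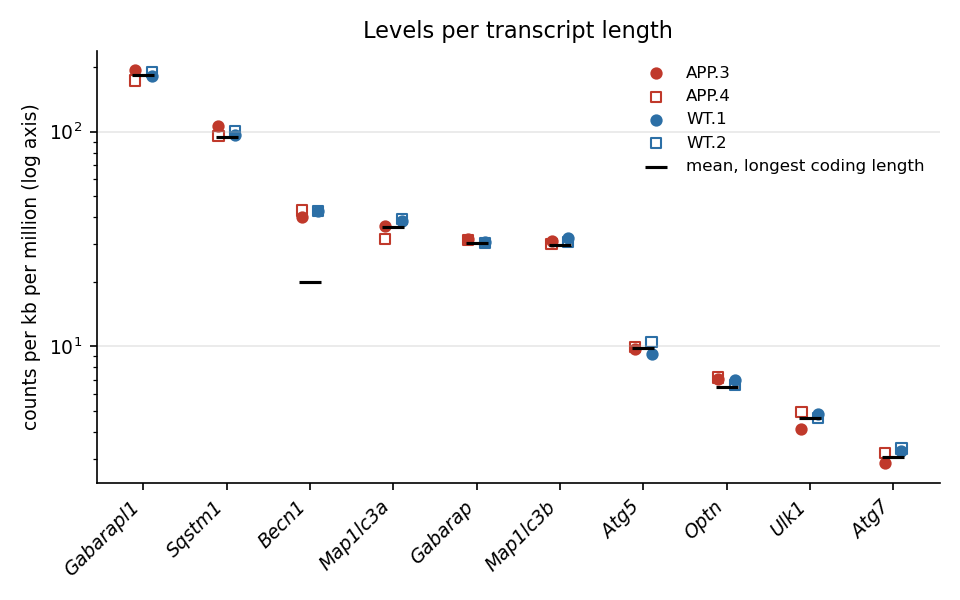
CPM per kilobase (log axis) for each member, ordered by the mean, with 1 point per library and a bar for the mean when the length of the longest coding transcript is used. The libraries of a gene lie close together on this axis. Both APP values were nevertheless below both WT values for Map1lc3a and Atg7, and above both for Optn and Gabarap. The bar lies farthest from the points at Becn1, at 19.9 against 42.2.

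The rest of the pathway was followed in 7 lists with 84 genes, of which 83 were matched. At an adjusted p of 0.05, edgeR's quasi-likelihood test called 0 of these 83, and the same count came from DESeq2 and from the exact and the likelihood ratio test of edgeR. Log2 fold changes were negative for 63 genes and positive for 20, with a median of -0.05. Over all features 11270 of 22919 were negative, with a median of 0.00, and over those of at least 10 CPM 5403 of 9564, with a median of -0.02. At an unadjusted p under 0.05 there were 9 pathway genes, all with negative values, and 0 with positive values. Over all features the negative ones with such a p made up 4.19%, and among the 9564 features of at least 10 CPM there were 688 negative and 647 positive ones. The exact and likelihood ratio tests of edgeR also counted 9 without adjustment, and DESeq2 counted 8, all negative, where 3.56%, 3.89% and 2.58% of all features were negative with such a p. The count depended on single libraries. Without APP.3 there were 20 negative and 1 positive pathway genes, beside 9.25% and 9.86% of all features, and without APP.4 17 and 4, beside 7.93% and 8.83%. Without WT.1 there were 5, all negative, and without WT.2 4, all negative, beside 6.86% and 6.73% of all features in either direction. Negative values also prevailed with library totals in place of TMM (62 of 83) and with DESeq2's size factors (64 of 83). In these scalings at most 1 gene of a list differed in sign.

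All 4 genes of the initiation complex around ULK1 had negative log2 fold changes, with a median of -0.08, though 1 was positive without APP.3, without APP.4 or without WT.2. The gene with the smallest p was Rb1cc1, the scaffold of the complex, at -0.11 (adjusted p = 0.594 by edgeR's quasi-likelihood test). In the class III lipid kinase complex, to which Beclin 1 belongs, 7 of 7 values were negative (median -0.10; 1 was positive without WT.2), led by Uvrag at -0.15 (adjusted p = 0.504 by the same edgeR test). Of 11 genes for membrane delivery to the growing autophagosome, 9 were negative (median -0.10).

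Atg9a, which encodes a membrane protein of the vesicles that seed the autophagosome, had the smallest p of the pathway lists. Its CPM was 46.9 (APP.3) and 49.5 (APP.4) beside 59.0 (WT.1) and 57.8 (WT.2). Both APP values were below both WT values, and the log2 fold change was -0.28 with a standard error of 0.07 (95% interval -0.43 to -0.12, adjusted p = 0.122 by edgeR's quasi-likelihood test). With a library left out it was -0.24 (without APP.3), -0.32 (without APP.4), -0.26 (without WT.1) and -0.29 (without WT.2). Wdr45, a lipid-binding partner of the machinery that was named here after its value was seen, had a log2 fold change of -0.39 (adjusted p = 0.160 by edgeR's quasi-likelihood test).

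In the conjugation machinery 7 of 10 values were negative (median -0.04), and the smallest p was that of Atg4c, a protease for ATG8 proteins, at -0.19 (adjusted p = 0.388 by edgeR's quasi-likelihood test). Atg4c stood at -0.29 without APP.3 and at -0.11 without APP.4. Among the other cargo receptors 14 of 17 were negative (median -0.07), and the mitochondrial receptor Bcl2l13 stood at -0.24 (adjusted p = 0.226 by the same edgeR test). Of 14 genes for fusion with lysosomes 8 were negative (median -0.02). Without APP.4 9 were positive (median 0.05), whereas without APP.3 only 3 were (median -0.06). Snap29, a SNARE of that fusion, stood at -0.27 (adjusted p = 0.228 by the same edgeR test). Of 20 upstream regulators 14 were negative (median -0.04). Prkaa2, a catalytic subunit of the energy sensor AMPK, had 96.5 and 88.1 CPM in APP.3 and APP.4 against 110 and 107 in WT.1 and WT.2, a log2 fold change of -0.23 (adjusted p = 0.204 by edgeR's quasi-likelihood test). The remaining genes with an unadjusted p under 0.05, Vps41, Foxo3 and Lrrk2, were at -0.29, -0.17 and -0.25 and were named after their values were seen. For Vps41, WT.2 stood apart at 189 CPM with WT.1 at 146, and its log2 fold change was -0.09 without WT.2 and -0.47 without WT.1. Lrrk2 stood at -0.11 when APP.3 was left out and at -0.41 when APP.4 was.

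The pathway counts depended on the APP libraries. Without APP.3, 8 of the 83 pathway genes passed an adjusted p of 0.05 in edgeR's quasi-likelihood test, beside 8.67% of all features. Without APP.4, 4 of them passed, beside 6.19% of all features. Atg9a and Vps41 were called in both of these fits, and each called gene had a negative log2 fold change. Without WT.1 or without WT.2 the count was 0. With a library left out, the median log2 fold change ranged from -0.10 to -0.03 in the membrane delivery list, from -0.12 to -0.02 among the upstream regulators, from -0.06 to -0.02 in the conjugation machinery and from -0.08 to -0.04 among the cargo receptors.

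**Figure D5:**
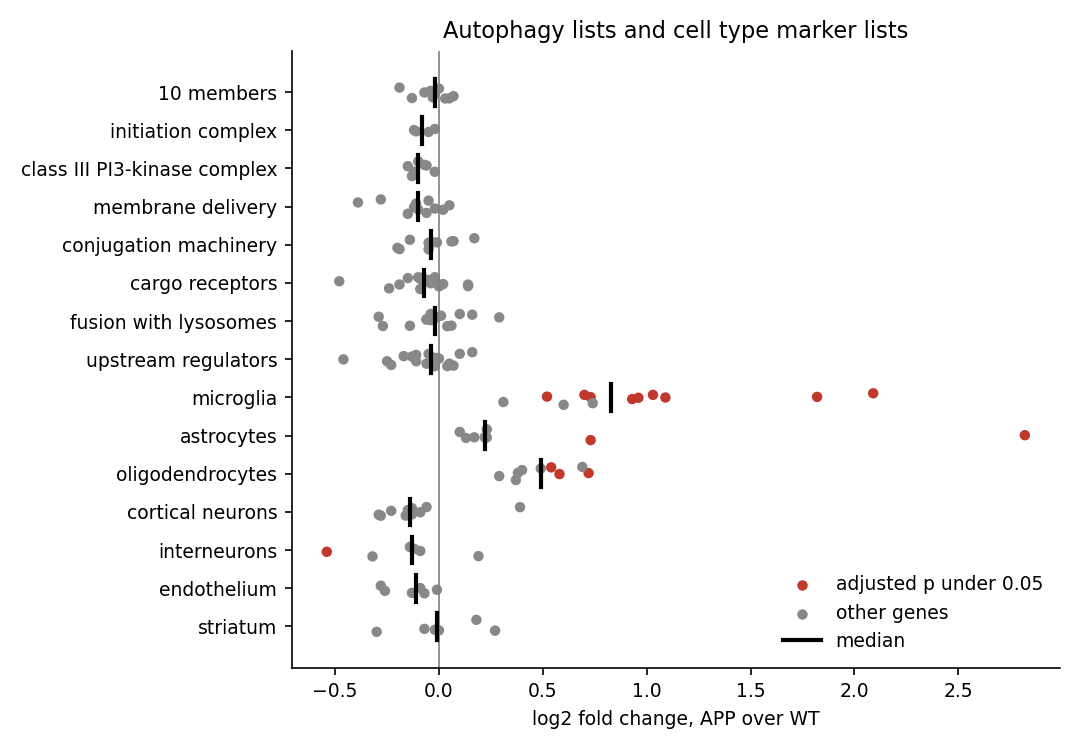
Log2 fold change of APP over WT for the 10 members, the 7 pathway lists and 7 of the marker lists, with 1 point per gene, a bar at each median, and red for an adjusted p under 0.05. Members and pathway genes lie around 0 with medians from -0.10 to -0.02, while microglial genes have a median of 0.83. The hypothalamic genes are not drawn, since several had hardly any counts in WT.

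Values of markers for the cell types in the tissue are given here because a bulk sample mixes them. In such a sample, fewer cells of a type and less RNA per cell cannot be told apart. A fit with a library left out has 1 mouse in a group, and without APP.3 or APP.4 more of all features passed than with all libraries. Counts of markers that passed in such fits are to be read with this limit. Of the 12 microglial markers 12 were higher in APP, and 9 passed edgeR's quasi-likelihood test at an adjusted p of 0.05. DESeq2 called 10 of the microglial markers and edgeR's exact and likelihood ratio tests 11. With a library left out, their median log2 fold change ranged from 0.69 (without APP.4, where 11 were higher) to 1.06 (without APP.3). Their summed level was 459 and 562 CPM in APP.3 and APP.4 against 281 and 279 in WT.1 and WT.2. Of the 8 astrocyte markers 8 were higher and 2 passed, Gfap and Aqp4. They summed to 4729 and 5093 CPM in APP and 4225 and 3855 in WT, and Slc1a2 was the most abundant. All 9 oligodendrocyte markers were higher and 3 passed, with sums of 1746 and 1509 CPM in APP and 1114 and 1252 in WT. Without APP.3 or APP.4, 6 and 3 astrocyte and 7 and 9 oligodendrocyte markers passed, and without WT.1 or WT.2, 1 and 5 of the oligodendrocyte markers. Of the latter, DESeq2 called 6 and edgeR's exact and likelihood ratio tests 7. Mobp, among them, was counted on rows with 19.9% of the gene's counts, since its other rows have no symbol.

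Of the 10 markers of cortical neurons 9 had negative log2 fold changes (median -0.14) and 0 passed, with 4 of them at an unadjusted p under 0.05 by edgeR's quasi-likelihood test. Their summed level was 4704 and 3819 CPM in APP.3 and APP.4 and 4388 and 4341 in WT.1 and WT.2, with Snap25 the most abundant. The highest sum, in APP.3, included 1307 CPM of Syt1, which had between 662 and 764 CPM in the other libraries and was named after its values were seen. DESeq2 called 1 of them and edgeR's exact and likelihood ratio tests 0. Without APP.3, 6 of these markers passed, all as lower in APP, and without APP.4, 2 as lower and 1, Syt1, as higher. Of the 6 interneuron markers 5 were negative and 1, Pvalb, passed as lower in APP, though 3 were positive without APP.3 and 0 without APP.4. The sums were 472 and 577 CPM in APP and 570 and 529 in WT, and Gad1 was the most abundant. Of them 3 passed without APP.3 (2 lower and 1 higher), 2 without APP.4 (both lower), 0 without WT.1 and 0 with library totals in place of TMM, while edgeR's exact and likelihood ratio tests called 2. All 6 endothelial markers were negative, though 3 were positive without APP.4 and 2 without WT.1, and 0 passed, with 1 at an unadjusted p under 0.05 by the same test, and the other tests called 0. Slc2a1 was the most abundant of them, Pecam1 was counted on rows with 57.2% of its counts, and they summed to 51.5 and 45.1 CPM in APP and 57.7 and 49.3 in WT.

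Markers of neighbouring regions separated single libraries or the genotypes. The 6 striatal markers summed to 134 CPM (APP.3) and 293 (APP.4) beside 197 (WT.1) and 219 (WT.2), and 0 passed edgeR's quasi-likelihood test, its exact or likelihood ratio test or DESeq2, with or without adjustment. APP.3 was thus the lowest and APP.4 the highest of the 4 libraries. Without APP.3, 6 of 6 striatal markers were higher in APP (median log2 fold change 0.47), and without APP.4, 6 of 6 were lower (median -0.70). Of the 5 hypothalamic markers matched, 5 were higher in APP and 3 passed, with 2 passing without WT.1. They summed to 3.94 and 5.97 CPM in APP and 0.477 and 0.366 in WT. Avp, the most abundant over the libraries together but the highest of the list only in APP.4, had 18 counts (APP.3) and 102 (APP.4) beside 2 (WT.1) and 0 (WT.2). No marker of any list had 3 or fewer counts in every library, and those of cortical neurons were present in each. The markers' levels thus differed between libraries, and their part in the result was not tested for the autophagy genes.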

How the data were processed

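Cortex RNA of 2 APP and 2 WT mice was analysed. The authors discarded pairs on ribosomal RNA, aligned the reads to Ensembl mouse RNA with FANSe2 and deposited read counts per transcript without normalization, for transcripts with at least 10 reads. Whether counting used strand and the Ensembl release are not given in the sources used here. The notes of the submitters name CASAVA 1.8, edgeR and the build hg19, although the transcript identifiers are of mouse. The count columns WT.1 and WT.2 carry the numbers of their sample labels, whereas APP.3 and APP.4 could be tied only to the genotype. Left unused were 4 columns of log2 CPM, and the authors' own log2 fold change, mean CPM, p-value and FDR.

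The 37539 transcripts were summed by gene symbol regardless of case. The 8274 without a symbol (22.0%, with 26.8% of the counts) stayed single features. Of 84 pathway genes 70 were matched by symbol, 4 by an older symbol and 9 through GENCODE M21, where at least 50% of the feature's counts had to be of that gene. Of 63 marker genes 62 were matched. The members and lists were chosen with earlier results of these data known. Named genes were the members, App, Prnp, Gapdh and Actb, pathway genes with an adjusted p under 0.05 or the smallest p of their list, the most abundant marker of a list (not given for every list) and markers with 3 or fewer counts in every library. Others were chosen after their values were seen, Gabarapl2 as a family member.

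A minimum of 10 summed counts removed 0 features. APP and WT were compared by the quasi-likelihood test of edgeR 4.0.16 (R 4.3.3, limma 3.58.1), after TMM scaling and without covariates, and p-values were adjusted by Benjamini-Hochberg across all features. DESeq2 was version 1.42.0. The common dispersion was 0.00781. CPM used TMM library sizes. Tables were made in Python 3.11.15 with pandas 2.3.3, and similar genes were sought with blastn 2.17.0. The tests were checked on simulated counts. The alternatives were edgeR's exact and likelihood ratio tests, DESeq2, library totals, no filter, at least 10 counts in every library, sums by Ensembl gene (18387 features), a 2-fold minimum, and omission of each library in turn. Standard errors came from the fitted model, which combines the spread between mice with spread shared between genes. The reads carry no molecular identifiers, and counts of a few reads are limited by counting error.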

Additional observations from a re-analysis of the deposited data

How the results depend on the processing

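The number of members with an adjusted p under 0.05 was 0 under each alternative except without APP.3, where Map1lc3a passed, so that it ranged from 0 to 1 with a library left out. The number of pathway genes ranged from 0 to 8 in these fits and was 0 under the other alternatives. Over all features, 303 passed, 589 with edgeR's exact test, 640 with its likelihood ratio test and between 198 and 1984 with a library left out. With a fold change of at least 1.5 these were 225, 397, 443 and between 184 and 730, and with a fold change of at least 2 there were 131. Without a library, an arm is left with 1 mouse, which is assumed to vary like the other group.

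Of 110 log2 fold changes of members under alternatives, 9 had the opposite sign. Apart from Atg5 with DESeq2, these came from fits with a library left out. The 110 include edgeR's exact and likelihood ratio tests and the fit without a filter. These gave each member the same printed value as the main fit, so they say nothing about the stability of signs. With a library left out the value ranged from -0.05 to 0.10 for Sqstm1, -0.11 to 0.06 for Gabarapl1, -0.20 to 0.05 for Ulk1, -0.07 to 0.01 for Becn1 and -0.09 to 0.10 for Atg5. For Atg5 it was 0.00, just below 0, with DESeq2. The ranges were -0.30 to -0.10 for Map1lc3a, -0.07 to 0.00 for Map1lc3b, -0.21 to -0.06 for Atg7, 0.04 to 0.10 for Optn and 0.04 to 0.05 for Gabarap. With the length of the longest transcript that GENCODE M21 classes as coding, which for Map1lc3b is deposited as a retained intron, levels moved to 94.4 for Sqstm1, 19.9 for Becn1, 30.4 for Gabarap, 29.8 for Map1lc3b and 6.45 for Optn, since the length divided by is then larger. No paired analysis was made, since the libraries come from different mice and no label ties an APP mouse to a WT mouse. The APP columns carry the numbers 3 and 4, which no sample label gives.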
